A study of Homo sapiens with 6 samples.

Results

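The elements described here are dREG peaks that lie outside every annotated gene but close to one: more than 500 bp and at most 10 kb from the nearest annotated transcript start. There were 1805 of them among 24707 peaks of the PRO-seq 1M list (7.31%, 95% confidence interval 6.99 to 7.64), 3700 of 38177 in the qPRO-seq 1M list (9.69%, 9.40 to 9.99) and 977 of 15562 in the qPRO-seq 250k list (6.28%, 5.91 to 6.67), or 6482 in all. With every list reduced to its 15562 top-scored peaks the shares were 5.65%, 7.02% and 6.28%, so that PRO-seq 1M came below qPRO-seq 250k. They were chosen by position alone, on chromosomes 1 to 22 and X, against the genes and transcript starts of GENCODE release 29 on build GRCh38. Peaks within 500 bp of a start, called start-near, and intergenic peaks beyond 10 kb served as comparisons. Where 3 values follow each other with no list named, the first is from PRO-seq 1M, the next from qPRO-seq 1M and the last from qPRO-seq 250k.

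All libraries came from untreated K562, an established human leukaemia line that the labels call lymphoblastoid. PRO-seq 1M was made from 1M permeabilized cells with the published protocol, qPRO-seq 1M from the same input with a quick protocol, and qPRO-seq 250k from 250k cells with the quick protocol. Each group held 2 biological replicates grown at least 3 passages apart, with 11 PCR cycles for both 1M groups and 14 for the 250k group, so that input and cycle number cannot be told apart. The files analysed give 1 peak list per group and no read counts. Read depth is therefore unknown, replicates cannot be compared, and groups are set side by side with no p-value. Intervals are 95% Wilson intervals for shares and Newcombe intervals for differences; they cover counting error only, and neighbouring peaks are not independent. Of 8 erythroid marker genes, 7, 8 and 7 had a start-near peak, among them GATA1 and TAL1.

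Run-on sequencing maps RNA polymerases that are caught while transcribing. The dREG classifier looks for places where such polymerases leave in both directions, a mark shared by active promoters and enhancers, and it does not tell these kinds of element apart. Intergenic elements close to genes include proximal enhancers, promoters of transcripts missing from an annotation, and genes read by RNA polymerase III, such as tRNA genes.

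Some members overlap the promoter window of a transcript start that RefSeq (GRCh38.p14) lists and GENCODE release 29 does not place within 500 bp, and for these a sequence can be shown. RefSeq promoter windows, which run from 250 bases before to 50 bases after a transcript start, overlapped a member of any list in 101 cases, 33 of them at protein-coding and 68 at long noncoding RNA genes. Members of all 3 lists overlapped 37 windows. The 7 of these with the highest qPRO-seq 1M score are printed first. Their peaks need not be strong in the other lists. The qPRO-seq 250k peak on LOC124903862 stood at percentile 12.4 of the scores of its list. The PRO-seq 1M peak on LOC124904654 stood at percentile 33.3. A window is also not the element itself: the peaks covered 163, 163 and 93 of the 300 bases at LOC124902294. The last window printed was chosen after its sequence was seen, for its 3 matches to CCACACCC. Sequences are RefSeq's, 5′ to 3′ along the named gene, and capitals mark a match on either strand to TATAAA or CCACACCC, the motifs among those searched below that these 8 windows contain.
LOC124901265, chr6:14108513-14108812, plus strand: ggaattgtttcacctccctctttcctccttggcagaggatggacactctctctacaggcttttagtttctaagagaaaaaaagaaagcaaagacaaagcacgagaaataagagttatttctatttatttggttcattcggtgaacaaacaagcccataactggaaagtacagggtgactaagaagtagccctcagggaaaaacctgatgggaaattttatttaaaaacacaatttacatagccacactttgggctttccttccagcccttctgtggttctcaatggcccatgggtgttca
LOC124904058, chr17:74982144-74982443, plus strand: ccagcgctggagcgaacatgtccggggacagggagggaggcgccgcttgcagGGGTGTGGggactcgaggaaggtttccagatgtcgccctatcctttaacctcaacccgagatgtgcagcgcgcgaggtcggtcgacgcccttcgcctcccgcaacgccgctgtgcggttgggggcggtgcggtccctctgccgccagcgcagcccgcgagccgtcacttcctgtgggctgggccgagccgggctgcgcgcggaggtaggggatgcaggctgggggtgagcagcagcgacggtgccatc
LOC124902294, chr9:133238254-133238553, minus strand: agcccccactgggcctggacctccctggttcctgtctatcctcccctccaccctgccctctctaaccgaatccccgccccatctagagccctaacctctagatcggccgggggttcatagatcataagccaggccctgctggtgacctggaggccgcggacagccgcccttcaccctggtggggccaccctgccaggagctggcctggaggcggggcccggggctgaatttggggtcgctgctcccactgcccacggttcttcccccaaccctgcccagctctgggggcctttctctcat
LOC101930665, chr17:21612642-21612941, plus strand: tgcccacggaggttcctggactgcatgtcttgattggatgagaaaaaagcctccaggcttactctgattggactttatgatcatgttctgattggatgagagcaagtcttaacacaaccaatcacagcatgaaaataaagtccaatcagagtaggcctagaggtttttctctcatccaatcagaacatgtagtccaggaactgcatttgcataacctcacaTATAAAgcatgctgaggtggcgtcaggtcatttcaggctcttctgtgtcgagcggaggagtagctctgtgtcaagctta
LOC124904654, chr19:18328475-18328774, plus strand: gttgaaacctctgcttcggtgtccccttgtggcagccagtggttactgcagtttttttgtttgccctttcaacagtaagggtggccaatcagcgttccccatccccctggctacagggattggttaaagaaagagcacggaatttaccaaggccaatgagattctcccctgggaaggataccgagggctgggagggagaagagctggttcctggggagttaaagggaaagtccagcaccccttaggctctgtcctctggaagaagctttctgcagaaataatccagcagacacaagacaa
LOC107984132, chr13:19118234-19118533, minus strand: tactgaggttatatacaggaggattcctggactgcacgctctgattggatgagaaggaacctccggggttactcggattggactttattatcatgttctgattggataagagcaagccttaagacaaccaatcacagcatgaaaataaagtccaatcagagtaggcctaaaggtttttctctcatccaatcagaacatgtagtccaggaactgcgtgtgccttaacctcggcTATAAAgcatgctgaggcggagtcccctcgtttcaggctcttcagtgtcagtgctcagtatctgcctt
LOC124903862, chr1:17441494-17441793, minus strand: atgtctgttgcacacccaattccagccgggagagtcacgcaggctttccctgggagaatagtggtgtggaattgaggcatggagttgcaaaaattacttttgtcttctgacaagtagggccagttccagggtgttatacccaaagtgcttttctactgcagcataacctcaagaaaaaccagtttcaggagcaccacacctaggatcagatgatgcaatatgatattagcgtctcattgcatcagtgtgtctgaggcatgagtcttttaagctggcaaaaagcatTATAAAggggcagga
LOC105378179, chr14:49868121-49868420, minus strand: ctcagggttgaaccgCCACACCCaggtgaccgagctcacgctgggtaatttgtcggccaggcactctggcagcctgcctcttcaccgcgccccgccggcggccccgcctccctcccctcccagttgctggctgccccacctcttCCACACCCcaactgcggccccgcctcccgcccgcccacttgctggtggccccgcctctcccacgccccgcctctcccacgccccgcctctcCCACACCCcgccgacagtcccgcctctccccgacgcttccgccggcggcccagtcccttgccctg

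The first window overlaps a qPRO-seq 1M peak 8076 bp upstream of CD83, which codes for a surface protein of the immunoglobulin superfamily. That peak covers 222 of the 300 bases of the window. The base composition of the window is 41.0% G or C with 2 CpG pairs. The second window, which overlaps a qPRO-seq 1M peak 4942 bp upstream of CDR2L, has 70.3% G or C and 33 CpG pairs. The first 7 windows thus range from AT-rich to GC-rich. LOC101930665 and LOC107984132, on chromosomes 17 and 13, are related to each other: a global alignment gave 253 identical positions of 312 (81.1%), and both carry TATAAA. How reads shared by such copies were placed is not given in the sources used here.

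Windows in members were less rich in CpG than windows in start-near peaks. The median window held 23.5, 15 and 15.5 CpG pairs in the members (68, 88 and 44 windows), against 28 in the start-near peaks of each list and 14 over all 34789 windows. Median G or C content was 66.8%, 60.2% and 64.0% in members and 67.0%, 66.0% and 66.3% in start-near peaks. In the members of qPRO-seq 1M, TATAAA, the core of the TATA box, was present in 12.5% of windows (7.13 to 21.0) against 4.59% of windows in start-near peaks. CCGGAAGT, the core bound by ETS-family factors, was present in 3.41% (1.17 to 9.55) against 9.59%. In the other lists the interval for TATAAA also lay above the start-near share, at 11.8% (6.08 to 21.5) against 4.06% in PRO-seq 1M and 13.6% (6.40 to 26.7) against 4.14% in qPRO-seq 250k. That for CCGGAAGT covered the start-near share in both, at 4.41% (1.51 to 12.2) against 9.81% and 4.55% (1.26 to 15.1) against 10.9%, so its difference was not beyond counting error there. In qPRO-seq 1M the upper limit of 9.55% lay only just below the start-near share, whose own interval was 9.07 to 10.1. The lists can therefore not be told apart in CCGGAAGT. Both members' shares in qPRO-seq 1M lay close to those over all windows, 11.6% for TATAAA and 4.12% for CCGGAAGT, and the compared windows also differ in base composition and gene type.

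AGATAA, the GATA-factor site, was found in 10.9% of the 101 windows (6.19 to 18.5) against 10.4% of all windows. TGANTCA, the AP-1 site, was found in 8.91% (4.76 to 16.1) against 7.69%. CCACACCC, a site of Krüppel-like factors, and the palindromic NRF1 site were each found in 2.97% (1.02 to 8.37), against 3.29% and 1.23% of all windows. None of these shares could be told from that of all windows at this number of windows. The longer NF-E2 site contains the AP-1 site, and the composite E-box and GATA site contains AGATAA. The NF-E2 site and the composite site were each found in 0 of 101 windows, which allows a share of up to 3.66%. Over all windows their shares were 0.155% and 0.276%, so these counts of 0 show no difference from all windows. Motifs were searched on both strands, and a match describes the letters only.

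Most members lay on the upstream side of their nearest start. The upstream share was 70.4% (68.2 to 72.4), 71.9% (70.4 to 73.3) and 70.6% (67.7 to 73.4), so the lists did not differ beyond their counting intervals. With protein-coding genes alone as the annotation it was 83.8%, 86.8% and 84.1%. The rule contributes to this imbalance, because a downstream member has to lie past the end of a gene: the nearest gene of downstream members had a median length of 840, 807 and 807 bp, against 15428.5, 18041 and 16031 bp for upstream members.

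Upstream members were more numerous per kb of distance towards the start. In qPRO-seq 1M there were 646 members between 0.5 and 1 kb upstream, or 1292 per kb, and 459, 249.3 and 161.4 per kb at 1 to 2, 2 to 5 and 5 to 10 kb. PRO-seq 1M fell in the same bins from 648 to 76.8 per kb, and qPRO-seq 250k from 356 to 44.6 per kb. Downstream the density stayed between 52.4 and 61.67 per kb, between 98 and 140, and between 25.8 and 40 in the 3 lists. These densities are counts per kb of distance, not per kb of intergenic sequence lying at that distance. That amount was not measured, so how much the rule contributes to the upstream fall was not tested. Median distances were 3561, 3490 and 3455 bp. Neither limit of the rule falls at a break: 401 to 500 bp from a start there were 130, 237 and 60 intergenic peaks in the 3 lists, and 501 to 600 bp away 108, 195 and 57. Between 9501 and 10000 bp there were 56, 119 and 32, and between 10001 and 10500 bp 55, 119 and 36.

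**Figure D1:**
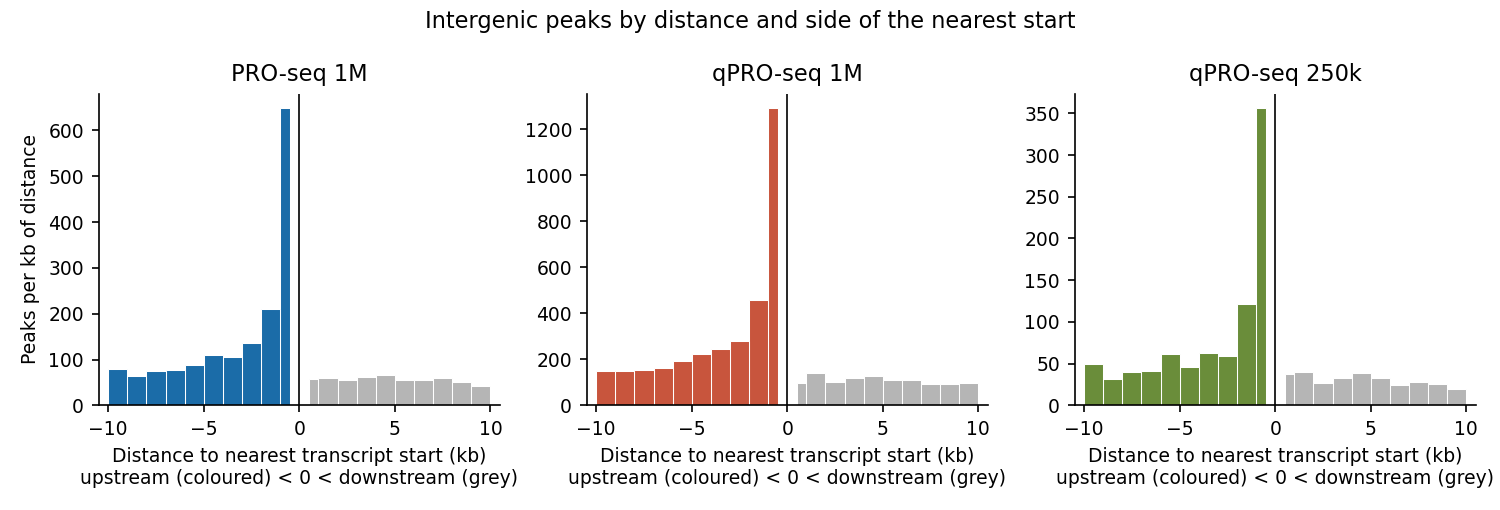
Members per kb of distance to the nearest transcript start, by side (upstream coloured, downstream grey), for the 3 peak lists; the bin nearest the start on each side runs from 0.5 to 1 kb, and the vertical scale differs between panels. Density rises towards the start on the upstream side, to 1292 per kb in qPRO-seq 1M, and stays flat downstream. Counts were not divided by the intergenic sequence lying at each distance.

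The nearest gene was protein-coding for about the same share of members in each list: 48.8% (46.5 to 51.1), 50.3% (48.7 to 51.9) and 50.1% (46.9 to 53.2). Long noncoding RNA genes were nearest to 21.3%, 21.2% and 21.3%, pseudogenes to 20.4%, 19.8% and 19.7%, and small RNA or other genes to 9.47%, 8.65% and 9.01%. The 2 sides differed in this respect: protein-coding genes were nearest to 59.8%, 62.4% and 62.2% of upstream members and to 22.8%, 19.4% and 20.9% of downstream members. The short pseudogenes were nearest to 34.8%, 35.3% and 35.5% of downstream members.

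The gaps that hold the members were medium-sized, with a median of 22.2, 22.7 and 21.6 kb between the flanking genes. Flanking genes pointed the same way for 53.3%, 53.5% and 52.8% of members, away from each other for 29.6%, 30.6% and 29.8%, and towards each other for 17.1%, 15.9% and 17.4%. The closest gene edge was a 3′ end rather than a start for 37.6%, 36.1% and 37.3%. These shares did not separate the lists beyond their counting intervals.

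Many members had a nearest gene with a peak at its start. The nearest gene had a start-near peak in the same list for 47.5% (45.2 to 49.8), 50.1% (48.5 to 51.7) and 42.3% (39.2 to 45.4) of members, against 30.6%, 31.2% and 24.9% of intergenic peaks beyond 10 kb. The order of the lists turned with their length: with each list reduced to as many top-scored peaks as the shortest has, the members' shares were 38.6%, 33.8% and 42.3%, lowest in qPRO-seq 1M. Where the nearest gene was protein-coding the share was 78.1%, 76.8% and 66.7%, against 63.5%, 64.1% and 52.8% beyond 10 kb. With protein-coding genes alone as annotation the share over all members was 77.8%, 77.2% and 67.0%. As background, 52.9%, 54.5% and 44.0% of all protein-coding genes had a start-near peak.

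This share fell mainly between the closest members and those at 2 to 5 kb. For members 0.5 to 1 kb from a start it was 81.0%, 83.0% and 70.1% in the 3 lists, and at 1 to 2 kb 52.59%, 55.43% and 44.1%. At 2 to 5 kb it was 36.75%, 41.48% and 31.46%, and at 5 to 10 kb 35.9%, 37.4% and 34.1%. Among members with a protein-coding nearest gene in qPRO-seq 1M it went from 93.1% at 0.5 to 1 kb to 64.9% at 5 to 10 kb. From 2 to 5 kb to 5 to 10 kb, such members stayed level in PRO-seq 1M (71.05% and 70.83%). In qPRO-seq 250k they stood at 55.86% and 61.87%, with intervals that overlap.

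The closest members formed part of longer runs of peaks. Neighbouring peaks of a list are never closer than 20 bp, and 24.8%, 29.2% and 16.9% of members had a neighbour at exactly that distance. For intergenic peaks beyond 10 kb the shares were 20.8%, 22.2% and 16.6%. A neighbour within 500 bp was present for 38.5%, 41.7% and 31.5% of members, against 28.1%, 30.3% and 23.1% of intergenic peaks beyond 10 kb. Peaks beyond 10 kb lie too far from a start to adjoin a start-near peak, so the 2 classes differ here partly by definition. Whether a difference remains without members joined to a start-near peak was not tested. Runs joined by steps of at most 500 bp reached a start-near peak for 16.3%, 16.8% and 12.6% of members. At 0.5 to 1 kb this share was 70.3%, 72.2% and 55.3%, so most of these nearest members were joined to a start-near peak in this way. Beyond 2 kb it was 2 members, both in qPRO-seq 1M.

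Members were weaker than promoter peaks. The dREG score is the authors' and has no fixed unit, so each peak was placed as a percentile among the scores of its own list. The median member stood at percentile 35.7, 39.5 and 38.3 of its list, against 58.9, 59.9 and 55.7 for start-near peaks and 38.1, 43.3 and 39.9 for intergenic peaks beyond 10 kb. The top score decile of the list held 4.10%, 5.30% and 6.14% of members, against 10.0% of all peaks. Their median widths were 410, 410 and 400 bp.

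Members were overlapped by another list less often than peaks overall. Of PRO-seq 1M members, 88.3% (86.7 to 89.7) shared at least 1 bp with a qPRO-seq 1M peak, against 90.6% of all PRO-seq 1M peaks, and 46.1% (43.9 to 48.5) with a qPRO-seq 250k peak, against 60.2%. Of qPRO-seq 1M members, 46.6% were overlapped by PRO-seq 1M, against 63.3% of all its peaks, and 27.5% by qPRO-seq 250k, against 44.1%. Of qPRO-seq 250k members, 82.6% were overlapped by PRO-seq 1M, against 91.2%, and 93.7% by qPRO-seq 1M, against 96.6%. The longest list thus covered nearly all members of the other lists, and the shortest covered few members of the longest. With all lists reduced to 15562 peaks, these 6 shares were 73.3%, 66.2%, 59.4%, 56.9%, 63.4% and 66.3% in the order given. The shares over all peaks were not computed at that length. Whether members were still overlapped less often than peaks overall there was therefore not tested.

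**Figure D2:**
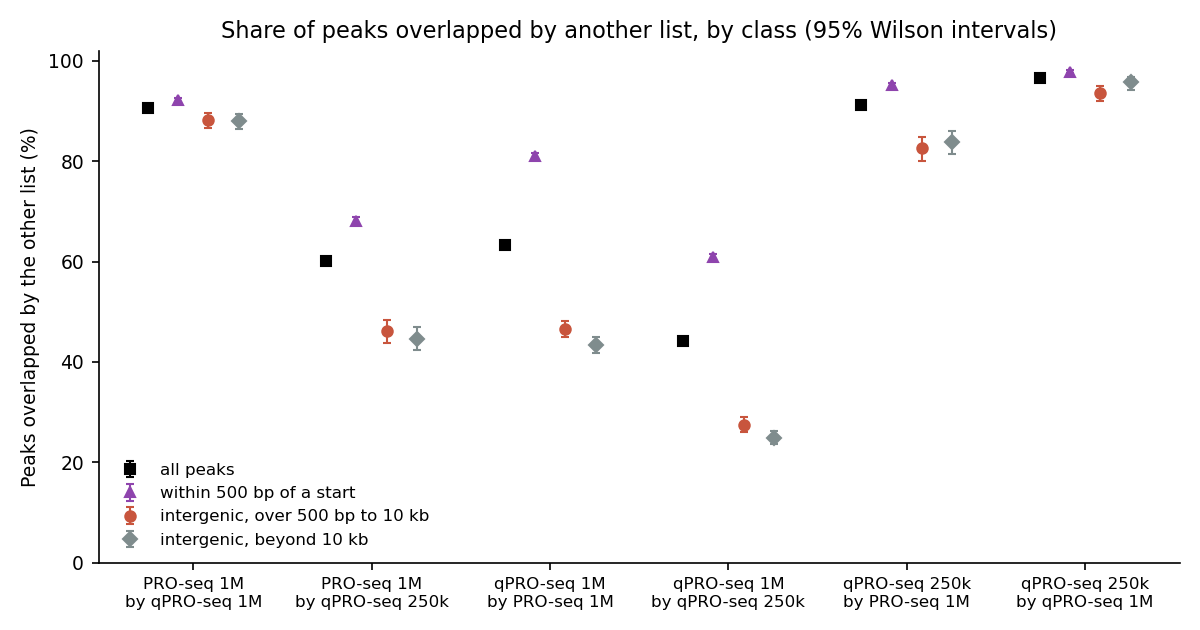
Share of peaks overlapped by at least 1 bp of a peak of another list (%), with 95% Wilson intervals, for each ordered pair of lists and 4 classes of peak. Members (circles) lie below start-near peaks (triangles) in all 6 pairs and near intergenic peaks beyond 10 kb (diamonds); the smallest member share is 27.5%, for the overlap of qPRO-seq 1M members with the 250k list.

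The distance to start-near peaks was largest in the qPRO-seq 1M list. Its members were overlapped by PRO-seq 1M less often than start-near peaks by 34.5 percentage points (difference −34.5, −36.1 to −32.8), and by qPRO-seq 250k by 33.3 points (−33.3, −34.9 to −31.7). Within score deciles, which compare peaks of like score, these differences were −25.7 (−27.2 to −24.1) and −19.8 (−21.3 to −18.4). For PRO-seq 1M members overlapped by qPRO-seq 1M, the difference of −4.03 (−5.64 to −2.56) became 1.29 (−0.279 to 2.86) within score deciles, so that it was no longer below 0. The other 3 differences, −22, −12.6 and −4.16, stayed below 0 within deciles, at −7.20, −10.3 and −2.96.

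Against intergenic peaks farther away the members differed little. In qPRO-seq 1M they were overlapped more often than peaks beyond 10 kb of like score, by 5.97 points (4.07 to 7.88) for PRO-seq 1M and by 5.01 points (3.36 to 6.66) for qPRO-seq 250k. PRO-seq 1M members exceeded them by 2.88 points (0.0844 to 5.67) for qPRO-seq 250k. In the other 3 pairs the interval of the difference within deciles included 0.

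Overlap followed the score closely. Between the lowest and the highest decile, the overlapped share of qPRO-seq 1M members rose from 18.9% to 96.4% for PRO-seq 1M and from 6.94% to 86.7% for qPRO-seq 250k. For PRO-seq 1M members it rose from 71.4% to 100% and from 22.8% to 98.7%, and for qPRO-seq 250k members from 60.6% to 100% for PRO-seq 1M and from 82.4% to 100% for qPRO-seq 1M. Side and distance made little difference by comparison: upstream and downstream qPRO-seq 1M members were overlapped by PRO-seq 1M in 46.1% and 47.8% of cases, and members at 0.5 to 1 kb and 5 to 10 kb in 52.8% and 45.7%.

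**Figure D3:**
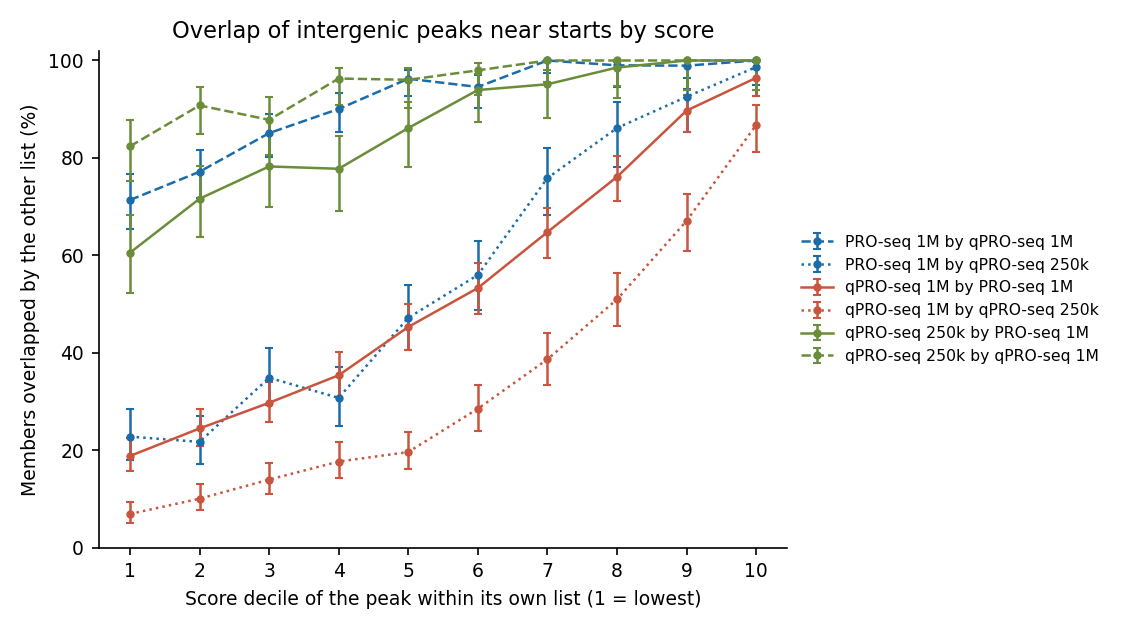
Share of members overlapped by another list (%) by the score decile of the member within its own list (1 is the lowest), with 95% Wilson intervals, for the 6 ordered pairs of lists. All 6 curves rise with score; the lowest starts at 6.94% and ends at 86.7%.

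Joining overlapping peaks of the 3 lists gave 3791 regions with a member. Of these, 882 (23.3%) had a peak in all 3 lists, against 34.6% of all 34308 regions. Regions with a peak in qPRO-seq 1M alone numbered 1836 (48.4%, 46.8 to 50.0), against 37.0% of all regions. The remaining patterns took shares near those over all regions. Both 1M lists without qPRO-seq 250k held 706 (18.6%, against 18.3% of all regions), and both quick-protocol lists held 108 (2.85%, against 2.55%). PRO-seq 1M alone held 199 (5.25%, against 6.14%), qPRO-seq 250k alone 51 (1.35%, against 1.04%), and PRO-seq 1M with qPRO-seq 250k 9 (0.237%, against 0.379%). Members that no other list overlapped were weak in their own list, with median percentiles of 14.9 (199 members), 24.8 (1836) and 12.7 (51). Members overlapped by both other lists stood at 53.9, 73.0 and 45.7.

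The class of a member mostly held between lists. Among PRO-seq 1M members overlapped by qPRO-seq 1M, 96.6% met at least 1 peak of the same class there and 5.78% a start-near peak, with peaks that meet both counted in both. Over the 6 pairs the share meeting the same class ran from 92.4% to 96.6%.

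The strongest members shared by all 3 lists stood far above the typical member. Among members, the highest score in qPRO-seq 1M belonged to a peak at chr1:212242091-212242780, 3114 bp upstream of the long intergenic RNA gene AL451060.1. Some peaks of other classes scored higher. It stood at percentile 100 (rounded) of qPRO-seq 1M, 89.3 of PRO-seq 1M and 88.6 of qPRO-seq 250k. RefSeq places the noncoding gene LINC02608 over it. The next, at chr11:61971341-61972240, lay 3547 bp downstream of the start of AP003733.4 and stood at 92.0, 99.9 and 99.9. Both nearest genes had a start-near peak in qPRO-seq 1M.

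The third, at chr2:231642351-231643130, lay 3143 bp downstream of the start of RN7SL499P, a pseudogene of the signal recognition particle RNA, which had no start-near peak. Its percentile was 91.3, 99.9 and 64.0. The member upstream of CD83 stood at 86.1, 99.9 and 79.4, and the last of the 6, 9605 bp upstream of SLC25A37, at 93.6, 99.8 and 99.5. SLC25A37 codes for mitoferrin-1, which carries iron into mitochondria for haem synthesis. The remaining one of the 6 covers a tRNA gene and is described with those. All of these were high in qPRO-seq 1M because they were chosen there, and the spread among lists was widest for the RN7SL499P member.

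Several regulators of the red cell lineage had a member near their start, on a list of genes chosen with earlier results of these data known. Of 21 erythroid regulators, 4, 5 and 3 were the nearest gene of a member. Over all 19864 protein-coding genes this held for 3.66%, 7.10% and 2.10%, and over those with a start-near peak for 5.35%, 9.79% and 3.25%. The 5 in qPRO-seq 1M (23.8%) were CBFA2T3, E2F2, GATA1, LDB1 and TAL1. LMO2, a LIM-domain partner of TAL1, had a member only by the PRO-seq 1M list, and MYB, a factor of blood progenitors, only by the qPRO-seq 250k list; these 2 are named because the counts are small.

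At LDB1, whose protein bridges GATA1 and TAL1 complexes, the member lay 808 bp upstream and stood at percentile 25.4, 88.9 and 36.3. RefSeq places LDB1 itself and PPRC1 over this member, so by RefSeq it is not intergenic. At CBFA2T3, a corepressor of the same complex, it lay 1627 bp upstream and stood at 72.8, 77.3 and 75.9. The 3 lists were alike at CBFA2T3 and unlike at LDB1. At GATA1, the principal erythroid transcription factor, the member at chrX:48782631-48783210 lay 3344 bp upstream and stood at 72.1 in PRO-seq 1M and 37.0 in qPRO-seq 1M. The nearest qPRO-seq 250k peak was 3040 bp from it. The members near TAL1 (9421 bp upstream, percentile 39.4) and E2F2 (8541 bp upstream, 41.8) were in qPRO-seq 1M alone. RefSeq places the noncoding gene LOC124903876 over the member near E2F2.

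Of 18 haem and iron genes, 1, 2 and 1 had a member (5.56%, 11.1% and 5.56%), led by SLC25A37. Over protein-coding genes with a start-near peak the share was 5.35%, 9.79% and 3.25%, so in the 1M lists haem and iron genes lay near it. Of 23 globin and red cell surface genes, 3, 3 and 2 had a member (13.0%, 13.0% and 8.7%). Among them RHAG, which codes for the Rh-associated glycoprotein of the red cell membrane, had a member 9297 bp upstream at percentile 89.1, 96.0 and 22.7. Of 22 cytokine signalling genes, 4, 2 and 1 did (18.2%, 9.09% and 4.55%), which in qPRO-seq 1M is again near the background share. PIM1, a kinase gene induced by STAT5, had its qPRO-seq 1M member 4967 bp downstream of the start at percentile 36.5, and no peak of the other lists overlapped it, although each of them had a member of its own nearest to PIM1.

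Of 23 immediate-early genes, whose transcription answers quickly to signals, 4, 4 and 3 had a member (17.4%, 17.4% and 13.0%). Among protein-coding genes with a start-near peak 5.35%, 9.79% and 3.25% had one. All these gene lists are short, and no difference from the background was tested. At FOS, an AP-1 subunit, the member lay 1414 bp upstream and stood at 78.6, 76.8 and 36.3. At EGR1, a zinc-finger factor, it lay 960 bp upstream and stood at 68.3, 62.9 and 69.9. At KLF6, a Krüppel-like factor, it lay 1140 bp upstream and stood at 5.00 in PRO-seq 1M and at 48.6 in the quick 1M list, with the nearest qPRO-seq 250k peak 600 bp away. The qPRO-seq 1M member 3992 bp upstream of IER5 (percentile 52.6) was overlapped by neither other list, although each had another member nearest to IER5. All 12 genes named from these lists had a start-near peak in qPRO-seq 1M.

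Members also gathered in groups around a few genes. KLF9, a Krüppel-like transcription factor that responds to glucocorticoids, was the nearest gene of 6 members in qPRO-seq 1M, 5 in PRO-seq 1M and 3 in qPRO-seq 250k, all upstream. In qPRO-seq 1M they began 3617 to 6107 bp from the start. The farthest of them was the strongest in each list, at percentile 84.0, 82.2 and 87.9. RefSeq places the noncoding gene KLF9-DT over this stretch.

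AC020916.1, an antisense RNA gene on chromosome 19, had 7 members in qPRO-seq 1M between 3473 and 8193 bp upstream, 3 in PRO-seq 1M and 1 in qPRO-seq 250k. A single element, 4713 to 4753 bp upstream, was shared by all 3 lists, at percentile 87.1, 80.4 and 71.3. The 3 members at 7403 to 8193 bp were in qPRO-seq 1M alone, at percentiles from 5.53 to 46.2. At KLF9 the lists therefore shared more elements than at AC020916.1.

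**Figure D4:**
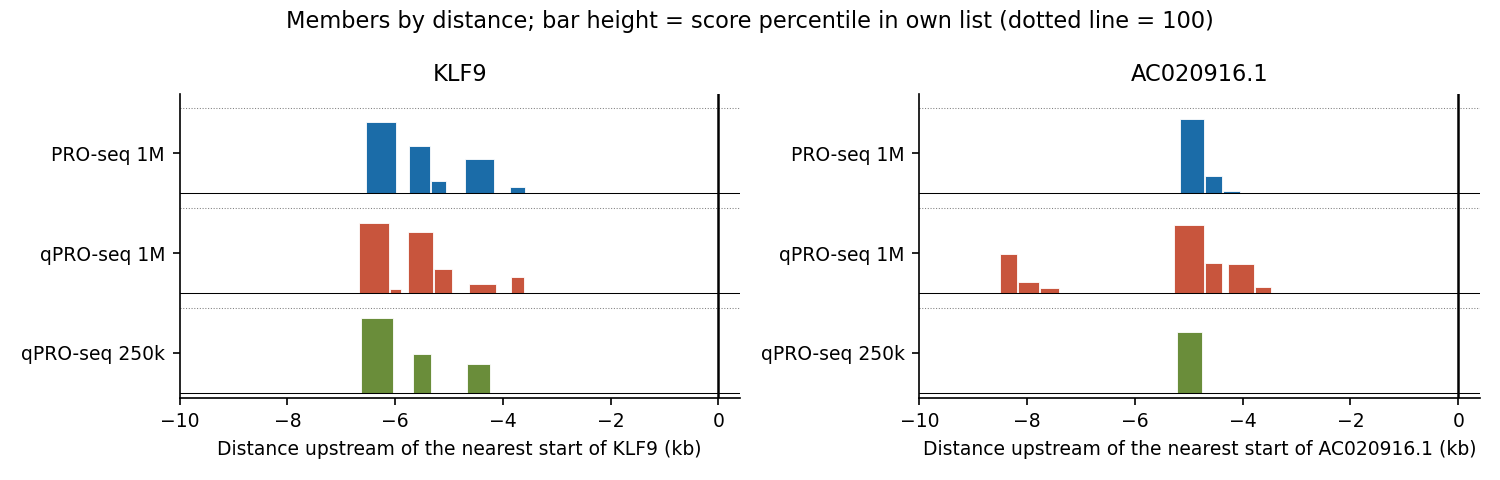
Members by distance upstream of the nearest start of KLF9 and AC020916.1 (kb), with bar width the extent of the peak and bar height its score percentile in its own list (dotted line, 100). The strongest peak is present in all 3 lists at each gene, and low bars are mostly in qPRO-seq 1M.

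The other 3 of the 5 genes taken for their number of qPRO-seq 1M members had members on tRNA genes. LINC02038 and TUBB2A also had 6 members in qPRO-seq 1M, as many as KLF9 and AP000442.1, but were not among the 5 taken. RNU6-471P, a U6 pseudogene, had 10 members in qPRO-seq 1M and 5 in each other list. HIST1H3PS1, a histone pseudogene, had 7, 9 and 5, and AP000442.1, a long intergenic RNA gene on chromosome 11, had 3, 6 and 1. Near HIST1H3PS1, members in all 3 lists covered the tRNA genes TRX-CAT1-3, TRS-AGA2-1 and TRR-ACG1-1.

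tRNA genes turned out to mark a distinct group of members; they were looked up after these values were seen. They are short genes transcribed by RNA polymerase III, whose engaged polymerases run-on methods also record. GENCODE's gene set as used here does not hold them, so a peak on one counts as intergenic unless it meets another gene. Of the 275 qPRO-seq 1M peaks on tRNA genes, 62 were start-near and 48 overlapped a GENCODE gene farther from a start. A RefSeq tRNA gene was overlapped by 75 PRO-seq 1M members (4.16%, 3.33 to 5.18), 88 qPRO-seq 1M members (2.38%, 1.93 to 2.92) and 74 qPRO-seq 250k members (7.57%, 6.08 to 9.40). Over all peaks the shares were 0.923%, 0.72% and 1.36%, and over intergenic peaks beyond 10 kb 3.47%, 1.91% and 6.00%. The number of these members thus hardly changed between lists while the number of other members changed from 903 to 3612. On chromosome 6, which holds a large tRNA gene cluster, there were 29, 34 and 30 of them.

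Members on tRNA genes were shared between lists far more often than other members. In qPRO-seq 1M, 80.7% (71.2 to 87.6) of them were overlapped by qPRO-seq 250k, against 26.2% (24.8 to 27.7) of the others, and 88.6% (80.3 to 93.7) by PRO-seq 1M, against 45.6% (44.0 to 47.2). In PRO-seq 1M, all 75 were overlapped by qPRO-seq 1M, and 86.7% (77.2 to 92.6) by qPRO-seq 250k, against 44.4% (42.1 to 46.7). In qPRO-seq 250k the shares were 90.5% against 81.9% by PRO-seq 1M and 95.9% against 93.5% by qPRO-seq 1M, with intervals that overlap. Their scores were also higher, with median percentiles of 50.6, 74.8 and 58.5 against 34.9, 38.8 and 36.6 for the others, and the part of score in the sharing was not tested. Fewer of them lay upstream of the nearest start, 48.0%, 46.6% and 52.7% against 71.3%, 72.5% and 72.1%. Leaving them out moved none of the overlapped shares of members beyond their intervals.

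**Figure D5:**
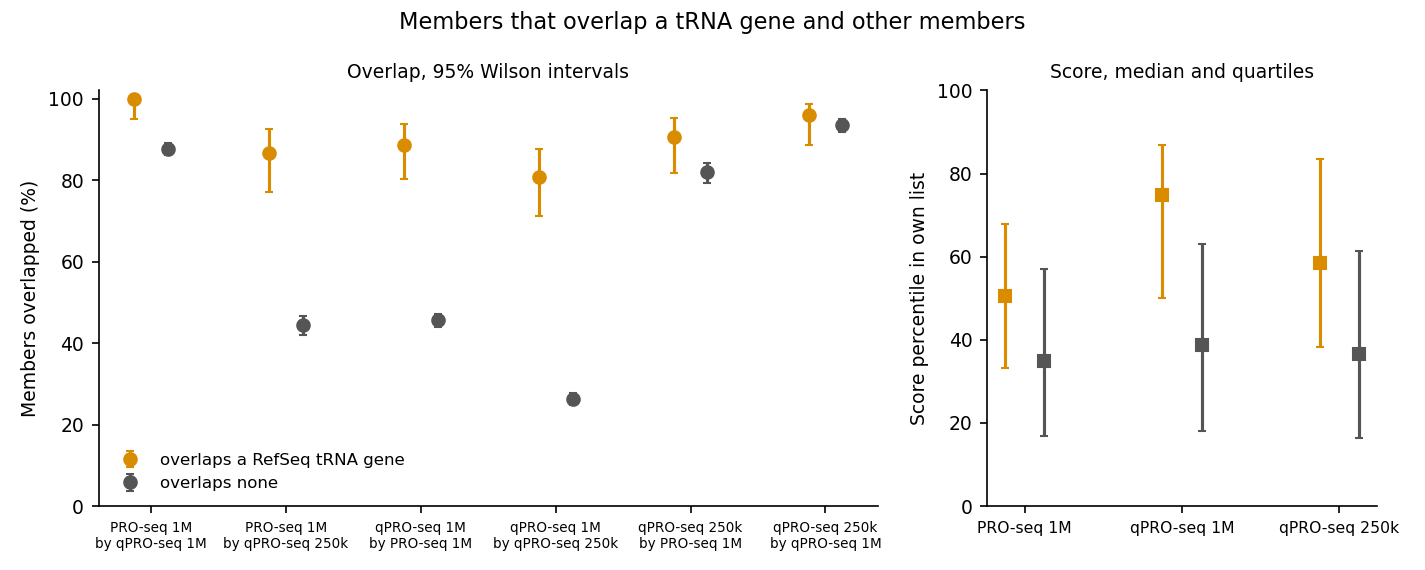
Left, share of members overlapped by another list (%) with 95% Wilson intervals, for members that overlap a RefSeq tRNA gene and for those that overlap none. Right, their score percentile in their own list (median and quartiles); the widest gap is 80.7% against 26.2%, for qPRO-seq 1M members met by the 250k list.

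From the side of the tRNA genes, 141 of 443 lay outside GENCODE genes and between 500 bp and 10 kb from a start. Of these, 79 (56.0%), 91 (64.5%) and 75 (53.2%) lay in a peak, near the shares over all 443 tRNA genes of 51.9%, 61.9% and 47.9%. In all, 67 were in peaks of all 3 lists, 17 of 2 lists, 10 of 1 list, and 47 of none. The copies that had a peak were therefore largely the same in each list.

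The strongest, TRS-AGA4-1, a serine tRNA gene, lay in the member at chr6:27553291-27553890, whose percentile was 98, 99.8 and 91.0. The glutamine tRNA gene TRQ-CTG4-1 followed, at 98.7, 99.4 and 95.6. The member on the aspartate tRNA gene TRD-GTC2-6 varied most among the 8 with the highest qPRO-seq 1M score, at 41.1, 96.1 and 73.6. All 4 tyrosine genes (TRY) and 6 of the 7 initiator methionine genes (TRX) in this set were in peaks of all 3 lists, whereas 0 of 4 tryptophan genes (TRW), 0 of 3 histidine genes (TRH) and 0 of 2 genes for the other methionine tRNA (TRM) were, a count chosen after its values were seen.

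The strongest members found in 1 list differed in how far they stood from any other peak. In qPRO-seq 1M the top one, at chr1:116504221-116504810, lay 5009 bp upstream of the noncoding gene AL390066.1 at percentile 94.8, and the nearest peaks of the other lists were 65010 bp (PRO-seq 1M) and 66100 bp away. The next, 1138 bp downstream of the start of the pseudogene AC137549.1, stood at 93.8, and the nearest PRO-seq 1M peak was 158520 bp away, but a qPRO-seq 250k peak lay 1160 bp away. The third, 4950 bp upstream of the pseudogene AL357078.2, stood at 93.4, with the nearest peaks of the other lists 13990 bp (PRO-seq 1M) and 14210 bp away.

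In PRO-seq 1M the top members found in that list alone stood lower, at 59.7 near KRT18P9, 56.0 near a copy of RF00019 and 56.0 near RNU4-27P. The last of these had a qPRO-seq 1M peak 60 bp away. In qPRO-seq 250k they stood at 50.4 near SIGIRR, 40.8 near EIF4B and 40.7 near RPL35AP, with a qPRO-seq 1M peak 200, 530 and 70 bp away. Among those of PRO-seq 1M, RefSeq places the protein-coding gene BCLAF3 over the RF00019 member. It places the noncoding gene LOC124904013 over the RNU4-27P member.

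RefSeq, a later and different annotation, placed a gene of some kind over 26.0%, 24.4% and 31.2% of members. The shares were close to those of intergenic peaks beyond 10 kb, at 25.6%, 21.8% and 28.5%. Long noncoding RNA genes covered 14.9%, 15.7% and 15.3% of members, against 19.8%, 17.5% and 20.9% beyond 10 kb. Protein-coding genes covered 6.93%, 6.00% and 8.50% of members, against 3.15%, 2.83% and 3.05%. The members under a RefSeq gene are intergenic by GENCODE release 29 and not by RefSeq.

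Chromosomes 20 and 6 had more members per peak than most. On chromosome 20 members were 11.1%, 12.9% and 9.39% of the peaks, and on chromosome 6 they were 10.2%, 11.7% and 8.52%.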

How the data were processed

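Nascent RNA was measured by run-on sequencing in 6 libraries, grouped by their titles. The files used were 3 dREG peak lists, 1 per group; the submitters' processing notes name Bowtie2 2.3.5.1, fastp 0.20.0 and UMI-tools, with no role or order. Pooling of replicates, the dREG version and the build are not given in the sources used here; scaffold names are those of GRCh38. Each peak's score and p-value are as the authors deposited them, and position columns are also as deposited; whether the p-value is adjusted is not stated. Scores were used only for ranks within a list. Starts, counted from 0 in the files, are printed counted from 1.

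Peaks were classed against GENCODE release 29 by distance from interval to nearest transcript start and overlap with any gene (Python 3.11.15, pandas 2.3.3), and the code was tested on simulated data. A gene had a start peak where a peak lay within 500 bp of one of its starts. Regions join peaks that share at least 1 bp. Sequences were read from RefSeq promoter windows of 300 bases, in place of a planned window around each peak centre; peak sequences away from these windows were not analysed here.

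The members, gene lists and markers were chosen with earlier results of these data known. Named were the 6 top-scored qPRO-seq 1M members of regions with members in all 3 lists, for each list its 3 top-scored members without overlap in another list, the 5 genes nearest to most qPRO-seq 1M members, and the 12 genes of the lists with the highest-scored qPRO-seq 1M member. The set of 5 genes cuts a tie at 6 members, which left out LINC02038 and TUBB2A. Others were chosen after their values were seen. Alternatives tried were p at most 0.01, protein-coding genes alone, a lower limit of 1000 bp, joining peaks within 500 bp, equal list lengths, centres as positions, stricter overlap, score deciles and, added later, leaving out tRNA members.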

Additional observations from a re-analysis of the deposited data

How the results depend on the processing

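No paired analysis was possible because the labels' replicate numbers have no columns of their own: each group of 2 libraries has 1 list. For the same reason no replicate could be left out. Of 138 values recomputed under an alternative, 65 stayed within the counting interval of the value reported, or, for numbers of members, within 1.5 times of it. The other 73 are given here, and the cause was not tested. With only peaks of p at most 0.01, the share of a list made up of members was 6.89% (PRO-seq 1M list), 9.18% (qPRO-seq 1M list) and 5.88% (qPRO-seq 250k list). The share whose nearest gene had a start peak was 44.3% (PRO-seq 1M list), 47.2% (qPRO-seq 1M list) and 36.7% (qPRO-seq 250k list). The overlapped share was 85.5% (PRO-seq 1M members, qPRO-seq 1M peaks) and 42.7% (PRO-seq 1M members, qPRO-seq 250k peaks). With protein-coding genes alone as annotation, the share of a list made up of members was 6.3% (PRO-seq 1M list), 8.2% (qPRO-seq 1M list) and 5.89% (qPRO-seq 250k list). The upstream share was 83.8% (PRO-seq 1M list), 86.8% (qPRO-seq 1M list) and 84.1% (qPRO-seq 250k list). The share whose nearest gene had a start peak was 77.8% (PRO-seq 1M list), 77.2% (qPRO-seq 1M list) and 67% (qPRO-seq 250k list). The overlapped share was 49.7% (PRO-seq 1M members, qPRO-seq 250k peaks), 48.8% (qPRO-seq 1M members, PRO-seq 1M peaks) and 30.7% (qPRO-seq 1M members, qPRO-seq 250k peaks). With a lower distance limit of 1000 bp, the share of a list made up of members was 5.88% (PRO-seq 1M list), 7.87% (qPRO-seq 1M list) and 5.01% (qPRO-seq 250k list). The upstream share was 65.2% (PRO-seq 1M list), 67% (qPRO-seq 1M list) and 65.6% (qPRO-seq 250k list). The share whose nearest gene had a start peak was 39.3% (PRO-seq 1M list), 42.5% (qPRO-seq 1M list) and 35.3% (qPRO-seq 250k list). With peaks within 500 bp joined first, the share of a list made up of members was 7.65% (PRO-seq 1M list) and 10.3% (qPRO-seq 1M list). The upstream share was 67% (PRO-seq 1M list) and 68.6% (qPRO-seq 1M list). The share whose nearest gene had a start peak was 37.6% (PRO-seq 1M list), 40.1% (qPRO-seq 1M list) and 34.8% (qPRO-seq 250k list). The overlapped share was 44% (qPRO-seq 1M members, PRO-seq 1M peaks) and 25.5% (qPRO-seq 1M members, qPRO-seq 250k peaks). With every list reduced to its 15562 top-scored peaks, the share of a list made up of members was 5.65% (PRO-seq 1M list) and 7.02% (qPRO-seq 1M list). The upstream share was 69.7% (qPRO-seq 1M list). The share whose nearest gene had a start peak was 38.6% (PRO-seq 1M list) and 33.8% (qPRO-seq 1M list). The overlapped share was 73.3% (PRO-seq 1M members, qPRO-seq 1M peaks), 66.2% (PRO-seq 1M members, qPRO-seq 250k peaks), 59.4% (qPRO-seq 1M members, PRO-seq 1M peaks), 56.9% (qPRO-seq 1M members, qPRO-seq 250k peaks), 63.4% (qPRO-seq 250k members, PRO-seq 1M peaks) and 66.3% (qPRO-seq 250k members, qPRO-seq 1M peaks). With the authors' peak centre as the position, the share of a list made up of members was 8.35% (PRO-seq 1M list), 10.9% (qPRO-seq 1M list) and 7.3% (qPRO-seq 250k list). The upstream share was 72.9% (PRO-seq 1M list) and 73.8% (qPRO-seq 1M list). The overlapped share was 49% (qPRO-seq 1M members, PRO-seq 1M peaks) and 29.5% (qPRO-seq 1M members, qPRO-seq 250k peaks). With an overlap of at least 50% of both peaks, the overlapped share was 78.2% (PRO-seq 1M members, qPRO-seq 1M peaks), 38.1% (PRO-seq 1M members, qPRO-seq 250k peaks), 38.1% (qPRO-seq 1M members, PRO-seq 1M peaks), 21.1% (qPRO-seq 1M members, qPRO-seq 250k peaks), 70.5% (qPRO-seq 250k members, PRO-seq 1M peaks) and 81.5% (qPRO-seq 250k members, qPRO-seq 1M peaks). With centres within 100 bp as the match, the overlapped share was 71.9% (PRO-seq 1M members, qPRO-seq 1M peaks), 35.1% (PRO-seq 1M members, qPRO-seq 250k peaks), 34.7% (qPRO-seq 1M members, PRO-seq 1M peaks), 20.2% (qPRO-seq 1M members, qPRO-seq 250k peaks), 65.5% (qPRO-seq 250k members, PRO-seq 1M peaks) and 77.4% (qPRO-seq 250k members, qPRO-seq 1M peaks). With members at tRNA genes left out, an alternative chosen after seeing the data, the share of a list made up of members was 5.8% (qPRO-seq 250k list). Within score deciles, the difference in overlap between members and start-near peaks turned from −4.03 to 1.29 for PRO-seq 1M members met by qPRO-seq 1M peaks and was −7.20 for those met by the 250k list. For qPRO-seq 1M members it was −25.7 (PRO-seq 1M peaks) and −19.8 (250k peaks). The upstream share stayed above 65% in every setting run. Read depth is unknown for all lists, so a longer list and a deeper library cannot be told apart.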
